A study of Mus musculus with 35 samples.

Results

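Loss of Flcn was compared in kidneys that still had Tfe3 (Flcn/Tfeb DKO) and in kidneys that still had Tfeb (Flcn/Tfe3 DKO). The quantity described is a difference of effects, on the log2 scale: the change in Flcn/Tfe3 DKO over its own controls less the change in Flcn/Tfeb DKO over its own controls. It was computed for 13637 expressed genes of the 31053 listed, from 25 of the 35 libraries of the study. A positive value means a higher effect where Tfeb was left. Each effect holds the loss of Flcn together with the loss of Tfeb, or of Tfe3 where the controls still had it. These parts cannot be told apart here.

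All kidneys came from C57BL/6 mice at postnatal day 2, and RNA of the whole organ was read from the 3′ end of transcripts. The Flcn/Tfeb cross had 3 control and 4 DKO libraries, in which floxed Flcn and floxed Tfeb were deleted by a Cre under the kidney-specific Cdh16 promoter. The Flcn/Tfe3 cross had 8 control and 10 DKO libraries, in which Flcn was deleted by the same Cre and Tfe3 was a germline null. The study gives the control genotype as floxed Flcn, whether controls carried the Cre is not given in the sources used here, and neither is the Tfe3 genotype of the Flcn/Tfe3 controls. The Cre acts in collecting duct, distal tubule and thick ascending limb, so cells of the glomerulus, proximal tubule, vessels and stroma kept Flcn, and kept Tfeb in the Flcn/Tfeb cross, whereas a germline loss of Tfe3 reaches every cell. The Flcn/Tfe3 libraries came in 2 deposited tables, here set B (3 control and 6 DKO) and set C (5 control and 4 DKO). Replicates are labelled biological. In RNA of a whole kidney, fewer cells of a type and less RNA per cell cannot be told apart.

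Folliculin, the product of Flcn, is a GTPase-activating protein for RagC and RagD on the lysosome. Through these Rag GTPases it lets mTORC1 phosphorylate TFEB and TFE3, which keeps both factors in the cytoplasm. When folliculin is lost, both can enter the nucleus, where they bind E-box elements of genes for lysosomes, autophagy and metabolism, RagD among them.

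Libraries held 1652649 to 4239356 counts on genes (median 3122979), and 15352 to 16474 genes were detected in each. One control of the Flcn/Tfeb cross, replicate 3, stood apart within its cross. Of its counts 4.47% were mitochondrially encoded, against 9.16% and 10.7% in the other 2 controls and 10.4% to 11.9% in the 4 DKO libraries. In set C, control replicate 5 had 7.80% beside 3.01% to 5.12% in the other 4 controls. Reads on no gene were 9.07% in Flcn/Tfeb control replicate 3, 17.8% and 19.9% in the other 2 and 18.8% to 19.4% in DKO. In set C they were 18.4% in control replicate 5, 8.78% to 14.2% in the other 4 controls and 7.92% to 10.5% in DKO. All 17 markers of the epithelium in which the Cre acts were expressed in these kidneys. Libraries with at least 100 counts of Xist were 2 of 3 controls and 3 of 4 DKO in the Flcn/Tfeb cross, 1 of 3 and 1 of 6 in set B, and 4 of 5 and 2 of 4 in set C, so the sexes were mixed unevenly.

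The targeted genes were a limited check of the labels, because 3′ reads can lie outside a deleted part. Tfeb measured 9.38, 7.07 and 19.4 CPM (counts scaled to the library's size) in the 3 Flcn/Tfeb controls and 7.93, 6.49, 7.70 and 7.92 CPM in the 4 DKO libraries. The groups overlapped, and 1 control was well above the rest. In the Flcn/Tfe3 cross Tfeb ran from 3.49 to 24.8 CPM in controls (median 11.1) and from 9.75 to 22.0 CPM in DKO (median 13.3). The difference of effects for Tfeb was 0.82 (SE 0.45, edgeR adjusted p = 0.447), and 0.22 without the high control, replicate 3. With the mitochondrially encoded share of each library as a covariate it turned to -0.092. Flcn, which only part of the kidney's cells lose, differed by 0.07 (SE 0.33). Tfe3 differed by 0.04 (SE 0.26), but its level was 12.5 to 24.8 CPM in all 18 Flcn/Tfe3 libraries, controls included, against 23.1 to 43.4 CPM in the 7 Flcn/Tfeb libraries. A genotype of the controls and the separate deposit of the crosses cannot be told apart as sources of that gap.

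The letters that MiT/TFE factors bind were searched in promoters, taken as 250 bases before to 50 after the start of each gene in RefSeq (GRCm38.p6). The motifs were CACGTG (the E-box), TCACGTG and GTCACGTG, which both contain it, and TCATGTG, which does not, on both strands. CACGTG was in the promoter of 8.09% of all 27025 genes with one, and in 18.4% of the 103 genes with a promoter among those the study lists as induced by loss of Flcn. Among the 27 with a promoter that were called higher in Flcn/Tfe3 DKO it was in 22.2%, and in 11.4% of the 10532 tested genes with one. For the same induced, called and tested genes GTCACGTG was in 5.83%, 3.70% and 4.70%. TCACGTG was in 8.74%, 11.1% and 6.92%, and TCATGTG in 6.80%, 7.41% and 2.51%. For 3 genes with the E-box and 1 without it, all described below, the promoter is shown. Capitals mark the E-box with its flanking TFE letters where present. Mlph lies at chr1:90914850-90915149 on the plus strand, Aqp6 at chr15:99600950-99601249 (plus), Ctsd at chr7:142387778-142388077 (minus) and Car12 at chr9:66713436-66713735 (plus), all written 5′ to 3′ along the gene.
Mlph: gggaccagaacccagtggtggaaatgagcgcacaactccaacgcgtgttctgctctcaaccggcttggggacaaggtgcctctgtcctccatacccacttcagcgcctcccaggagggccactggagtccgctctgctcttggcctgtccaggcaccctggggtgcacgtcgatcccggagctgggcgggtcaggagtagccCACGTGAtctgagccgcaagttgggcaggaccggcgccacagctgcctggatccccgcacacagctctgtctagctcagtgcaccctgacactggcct
Aqp6: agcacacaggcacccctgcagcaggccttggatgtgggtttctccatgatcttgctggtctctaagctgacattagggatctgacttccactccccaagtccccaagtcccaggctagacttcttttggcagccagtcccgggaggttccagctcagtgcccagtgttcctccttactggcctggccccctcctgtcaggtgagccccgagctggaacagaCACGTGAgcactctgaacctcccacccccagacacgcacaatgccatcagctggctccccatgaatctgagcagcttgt
Ctsd: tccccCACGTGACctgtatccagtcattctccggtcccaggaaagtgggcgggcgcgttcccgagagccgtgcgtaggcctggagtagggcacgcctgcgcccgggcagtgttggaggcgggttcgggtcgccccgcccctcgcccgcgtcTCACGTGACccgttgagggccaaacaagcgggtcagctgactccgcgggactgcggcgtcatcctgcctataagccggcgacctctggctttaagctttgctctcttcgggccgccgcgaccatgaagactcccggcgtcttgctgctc
Car12: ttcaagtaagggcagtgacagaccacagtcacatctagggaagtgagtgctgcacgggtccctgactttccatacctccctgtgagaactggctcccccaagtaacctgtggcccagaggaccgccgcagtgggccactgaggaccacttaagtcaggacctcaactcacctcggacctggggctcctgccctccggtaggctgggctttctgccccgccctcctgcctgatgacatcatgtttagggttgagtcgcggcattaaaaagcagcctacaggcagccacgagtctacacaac
Ctsd held the E-box at 2 places, Mlph and Aqp6 at 1, and the Car12 window held none of the letters searched. A match describes letters only.

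Over all genes, the difference of effects was called for 3 (0.022% of those tested; edgeR quasi-likelihood test, Benjamini-Hochberg adjusted p under 0.05). All 3 were higher in Flcn/Tfe3 DKO: Slc16a7, Car12 and Cyp4a31. No gene was called lower (0.0%) by edgeR or by DESeq2, which called 7, all higher. An unadjusted p under 0.05 was reached by 1032 genes (7.57%) in the higher and 627 genes (4.6%) in the lower direction. With set B alone 0 genes were called and with set C alone 1, Slc16a7, and 0 with the mitochondrial share of each library as a covariate. Across 15 other settings the difference was 1.31 to 1.67 for Slc16a7, 0.81 to 1.01 for Car12 and 2.60 to 3.54 for Cyp4a31. A single library could move the count a long way: it was 82 without control replicate 2 of the Flcn/Tfeb cross, 5 without replicate 1, and 1 without replicate 3 or without DKO replicate 2. The effect of Flcn/Tfe3 DKO alone gave 39 genes higher (0.286%) and 4 lower (0.0293%), with 7 and 1 in set B alone and 51 and 162 in set C alone. The effect of Flcn/Tfeb DKO alone gave 0 higher (0.0%), and 1 lower (0.00733%), which was Cyp4a31, and an unadjusted p under 0.05 was reached by 343 upwards and 876 downwards. DESeq2 called 4 genes for the Flcn/Tfeb effect, all lower. Without control replicate 2 edgeR called 28, and without replicate 3 it called 0. The smaller Flcn/Tfeb cross was measured less precisely, with a median SE of 0.28 per gene against 0.17 for the Flcn/Tfe3 effect and 0.33 for their difference. These counts therefore do not show that the Flcn/Tfeb effect was smaller gene by gene.

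**Figure D1:**
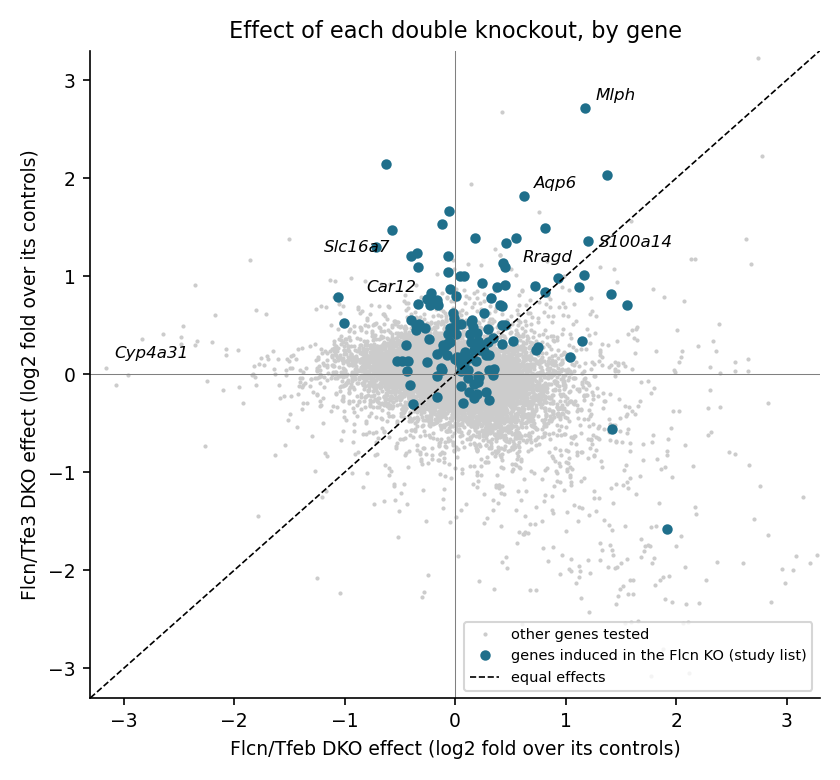
Effect of Flcn/Tfeb DKO (horizontal axis) against effect of Flcn/Tfe3 DKO (vertical axis), each a log2 fold over the controls of its own cross, for each gene tested; large points are genes the study lists as induced by loss of Flcn, and 17 genes lie beyond the axes. Slc16a7 and Car12 sit above 0 on the vertical axis and below 0 on the horizontal one, and S100a14 lies near the dashed line of equal effects.

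Slc16a7, which encodes a monocarboxylate transporter (chr10:125219270-125389465, GRCm38), had 32.8, 28.9 and 38.7 CPM in the Flcn/Tfeb controls and 30.5, 22.7, 28.5 and 20.2 CPM in the DKO. In the Flcn/Tfe3 cross it ran from 25.8 to 41.4 CPM in controls (median 33.3) and from 55.1 to 97.8 CPM in DKO (median 78.9). All 10 Flcn/Tfe3 DKO libraries were above all 8 of their controls, whereas the Flcn/Tfeb groups overlapped. Slc16a7 rose 2.30-fold in Flcn/Tfe3 DKO (log2 1.20, SE 0.12, edgeR adjusted p = 2.69e-07) and was at 0.759 of control in Flcn/Tfeb DKO (log2 -0.40, SE 0.20). The difference was 1.60 (95% confidence interval 1.13 to 2.07, adjusted p = 0.00144), a ratio of folds of 3.04, and was 1.51 against set B and 1.67 against set C.

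Car12, a membrane-bound carbonic anhydrase that takes part in acid and base transport (chr9:66713686-66766845), had 74.4, 65.4 and 80.2 CPM in the Flcn/Tfeb controls and 66.3, 57.2, 68.1 and 70.5 CPM in the DKO. It ran from 57.4 to 77.7 CPM in Flcn/Tfe3 controls (median 63.2) and from 102 to 121 CPM in the DKO (median 112). Here too every Flcn/Tfe3 DKO library was above every control, and the Flcn/Tfeb groups overlapped. The rise in Flcn/Tfe3 DKO was 0.76 (edgeR adjusted p = 8.11e-07), the Flcn/Tfeb effect was -0.16 (SE 0.13), and the difference was 0.92 (0.61 to 1.23, adjusted p = 0.00849). Against set B it was 0.81, and 1.01 against set C. The adjusted p for Car12 was 0.085 without control replicate 3 of the Flcn/Tfeb cross and 0.054 without DKO replicate 2, while its difference was 0.847 to 0.997 with any library left out, and for Slc16a7 without control replicate 3 it was 0.036.

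The difference for Cyp4a31 lay in the Flcn/Tfeb cross. This gene (chr4:115563649-115579015) encodes a fatty acid hydroxylase of a family whose members are close copies, so its counts are uncertain. It had 1.76, 35.9 and 41.5 CPM in the Flcn/Tfeb controls and 3.17, 2.60, 3.46 and 2.77 CPM in the DKO. Both Flcn/Tfe3 groups were high, at 36.9 to 113 CPM in controls and 52.6 to 92.3 CPM in DKO. Replicate 1 of the Flcn/Tfeb controls was as low as the DKO, and Cyp4a31 fell by 3.16 in Flcn/Tfeb DKO (edgeR adjusted p = 0.0139) beside an effect of 0.06 in Flcn/Tfe3 DKO. The difference of 3.22 (2.07 to 4.37, adjusted p = 0.0155) was not called without control replicate 3 of the Flcn/Tfeb cross (adjusted p = 0.45) or without any 1 of the 4 Flcn/Tfeb DKO libraries, although its size stayed at 2.67 to 3.72 with any library left out.

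**Figure D2:**
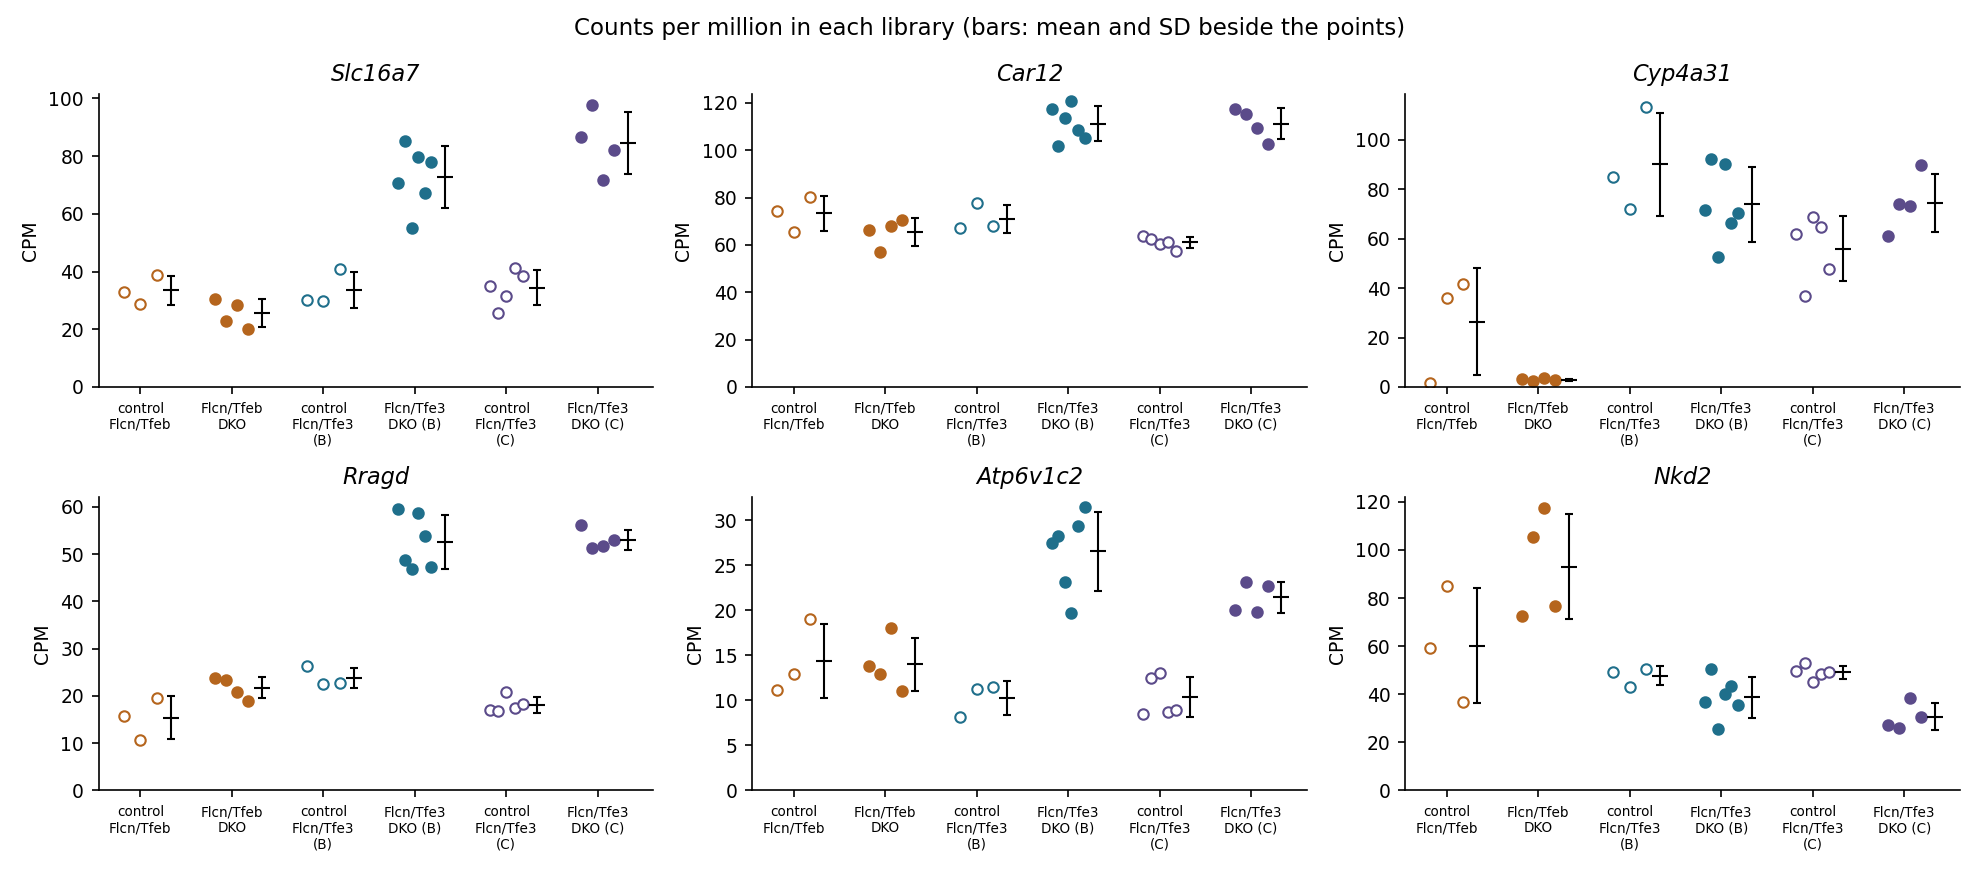
CPM of 6 genes in each library, by group and set, with mean and SD beside the points. For Slc16a7, Car12, Rragd and Atp6v1c2 the filled Flcn/Tfe3 DKO points of both sets lie above the open control points, whereas the Flcn/Tfeb DKO points of Slc16a7, Car12 and Atp6v1c2 overlap with their controls or lie below them; Cyp4a31 is low in all 4 Flcn/Tfeb DKO libraries and in 1 control.

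Genes that the study lists as induced in Flcn KO kidneys were followed as a list. The study also describes the list by its behaviour in these DKO kidneys, so its direction here is not independent evidence. Of 139 genes, 138 were in the files and 135 were tested. The difference was above 0 in 100 of the 135 (74.1%) with a median of 0.30 (0.36 using set B and 0.29 using set C), against 6857 of 13636 symbols and a median of 0.00 over all genes. Slc16a7 and Car12 were called. An unadjusted p under 0.05 was found for 36 higher (26.7%, against 7.57% of all genes) and for 1 lower. In 24 of them all 10 Flcn/Tfe3 DKO libraries lay above all 4 Flcn/Tfeb DKO libraries in their change over controls, which held for 3.09% of all genes, and in 1 below them, which held for 3.56%. The median effect was 0.41 in Flcn/Tfe3 DKO, with 116 above 0 and 32 called higher (39 of all 13637 genes were, 0.286%). It was 0.11 in Flcn/Tfeb DKO, with 84 above 0 and none called by edgeR, against 0.0% higher and 0.00733% lower over all genes. An unadjusted p under 0.05 was reached there by 8 upwards and 2 downwards, and by 343 and 876 of all genes. In the study's Flcn KO itself the median effect was 0.82 over the 123 genes tested there, a value the list was chosen for and so no measure to rank the DKO effects against. By library, the list's median was 0.085 to 0.165 in the 4 Flcn/Tfeb DKO and 0.339 to 0.647 in the 10 Flcn/Tfe3 DKO, with no overlap.

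The genes that the study lists as lower in Flcn KO were followed too. Over its 52 genes, all tested, the median effect was -0.15 in Flcn/Tfe3 DKO, with 2 called lower (against 0.0293% of all genes). It was -0.22 in Flcn/Tfeb DKO, with none called. An unadjusted p under 0.05 was reached there by 12 downwards and 1 upwards, and by 876 and 343 of all genes. The list's median difference was 0.06 with 30 above 0 and none called, and it was -0.12 without control replicate 3 of the Flcn/Tfeb cross.

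**Figure D3:**
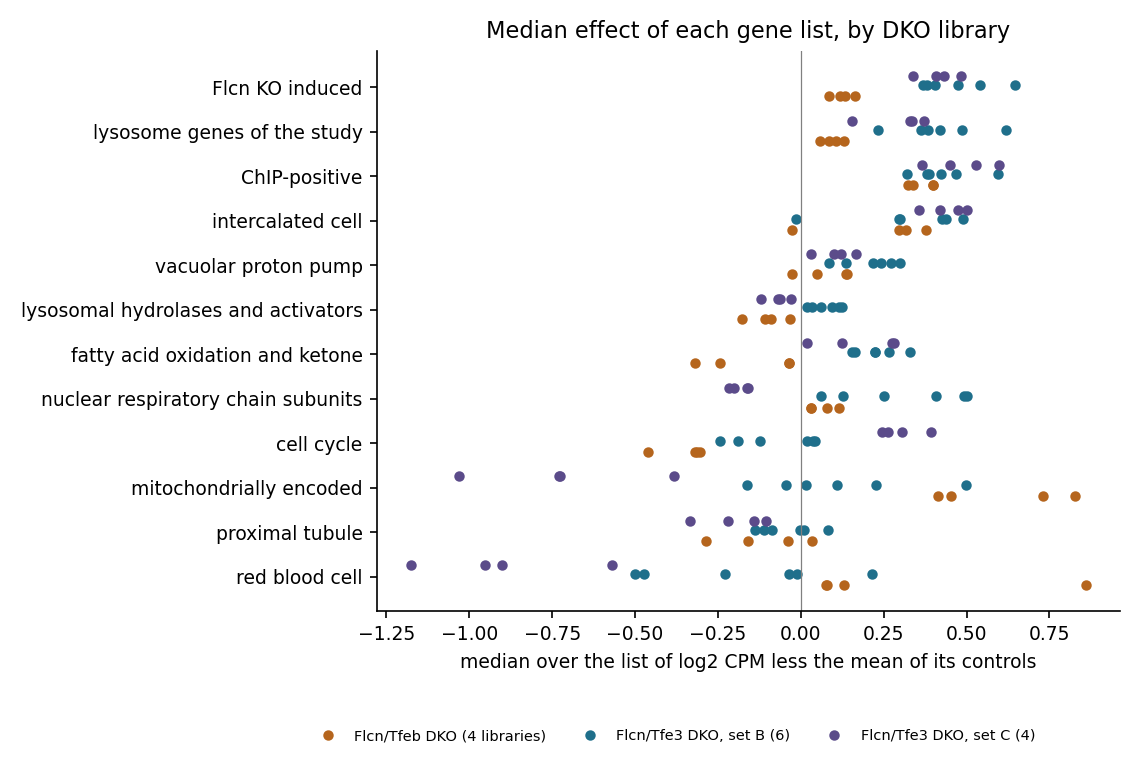
Median over each gene list of the change in log2 CPM from the average of matching controls (same cross, same set), 1 point for each DKO library. For the genes induced in the Flcn KO the 4 Flcn/Tfeb DKO points lie between 0.085 and 0.165 and the 10 Flcn/Tfe3 DKO points between 0.339 and 0.647, whereas for the intercalated cell and ChIP-positive lists the points overlap.

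For the 13 genes of the list that the study marks as positive in earlier chromatin immunoprecipitation of TFEB, the median difference was 0.08, with 10 of 13 above 0 and none called, and their effect was above 0 in 12 of 13 in Flcn/Tfe3 DKO (3 called, against 0.286% of all genes) and in 13 of 13 in Flcn/Tfeb DKO (none called, against 0.0%). The median difference was 0.014 against set B, 0.006 without control replicate 1 of the Flcn/Tfeb cross and 0.30 without replicate 3. Per library, the ChIP-positive median was 0.324 to 0.397 in Flcn/Tfeb DKO and 0.319 to 0.597 in Flcn/Tfe3 DKO, so the ranges overlapped.

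Rragd, the RagD GTPase through which folliculin acts on TFEB and TFE3, had 15.8, 10.6 and 19.6 CPM in the Flcn/Tfeb controls and 23.8, 23.4, 20.8 and 19.0 CPM in the DKO. In the Flcn/Tfe3 cross it ran from 16.7 to 26.3 CPM in controls (median 19.5) and from 46.8 to 59.6 CPM in DKO (median 52.4). The Flcn/Tfe3 groups were far apart, and the Flcn/Tfeb groups overlapped slightly. The effect was 1.34 in Flcn/Tfe3 DKO (edgeR adjusted p = 8.83e-09) and 0.46 in Flcn/Tfeb DKO (adjusted p = 0.52). The difference was 0.88 (0.43 to 1.34) with an adjusted p of 0.259.

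Mlph, which links melanosomes to myosin, had 1.76, 0.589 and 2.28 CPM in the Flcn/Tfeb controls and 5.55, 3.25, 2.69 and 3.57 CPM in the DKO, all above their controls. Mlph ran from 0 to 4.27 CPM in Flcn/Tfe3 controls and from 3.62 to 11.7 CPM in DKO. At a limit of 3 counts, or 0.708 to 1.82 CPM in these libraries, several of those values are few reads, and the difference was 1.54 (SE 0.85, edgeR adjusted p = 0.451). Rab27a, the small GTPase that Mlph binds, rose by 1.39 in Flcn/Tfe3 DKO (14.8 to 29.4 CPM against 2.09 to 12.2 CPM in controls), with an effect of 0.18 in Flcn/Tfeb DKO and a difference of 1.21 (SE 0.42, adjusted p = 0.302). The Rab27a difference was 0.52 to 1.61 under the other settings. Gadd45a, a stress-induced growth arrest gene, rose by 0.54 in Flcn/Tfe3 DKO, and its difference was 0.40 (SE 0.24).

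Gpnmb, a glycoprotein of melanosomes and lysosomes, was low in both double knockouts. It had 3.17, 1.30, 0.770 and 0 CPM in Flcn/Tfeb DKO and 0 to 3.62 CPM in Flcn/Tfe3 DKO, against 6.81 to 15.9 CPM in the study's Flcn KO. The Flcn/Tfeb controls had 0.586, 1.18 and 0 CPM. In set B controls had 0.719 to 5.49 CPM and DKO 0 to 3.62 CPM, and in set C 0 to 0.855 CPM and 0.612 to 3.11 CPM. Both DKO ranges lay below the Flcn KO range, which for Flcn/Tfe3 DKO compares libraries deposited apart, and this was not tested. The difference between the DKOs was -0.59 (95% confidence interval -3.48 to 2.30), at a few counts per library. With a library left out it ran from -1.64 to 0.46.

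The 6 lysosome genes that the study lists as induced were all above 0, with a median of 0.26 and none called, and their per-library medians did not overlap (0.058 to 0.130 in Flcn/Tfeb DKO and 0.154 to 0.618 in Flcn/Tfe3 DKO). Among them Ctsd, the protease cathepsin D, had 423, 346 and 445 CPM in Flcn/Tfeb controls and 389, 481, 401 and 360 CPM in DKO, which overlapped. In set B it had 425 to 518 CPM in controls and 520 to 690 CPM in DKO, and in set C 282 to 332 CPM and 382 to 438 CPM, with no overlap in either set. Ctsd rose by 0.41 in Flcn/Tfe3 DKO (edgeR adjusted p = 0.0367), its Flcn/Tfeb effect was 0.01, and the difference was 0.40 (SE 0.17, adjusted p = 0.362). Atp6v0d2, a proton pump subunit, rose by 1.13 in Flcn/Tfe3 DKO and differed by 0.70 (SE 0.34, adjusted p = 0.406), a value that was 0.083 without control replicate 3 of the Flcn/Tfeb cross and -0.27 with the mitochondrial share as a covariate. Ap1m2, a subunit of an epithelial sorting adaptor, differed by 0.60 (SE 0.28).

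Across the wider class, the median difference was 0.09 for 53 lysosomal hydrolases and activators, 0.08 for 57 genes of the lysosomal membrane and sorting, and 0.09 for 39 autophagy genes, with none called in any of them. With 1 Flcn/Tfeb control left out these medians fell as low as 0.006 (hydrolases, without replicate 1), 0.012 (membrane and sorting, without replicate 3) and 0.014 (autophagy, without replicate 2). An unadjusted p under 0.05 was found for 9 of the hydrolases upwards and 1 downwards, for 5 and 3 of the membrane and sorting genes, and for 4 and 0 of the autophagy genes, against 7.57% and 4.6% of all genes. The protease Tpp1 (0.83, SE 0.26) was among the 9, but its value rests on 79.7, 55.4 and 158 CPM in the Flcn/Tfeb controls against 57.2 to 69.4 CPM in the DKO, that is, on the high control replicate 3, without which it was 0.28.

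Of 17 markers of the intercalated cell, which secretes acid or base in the collecting duct, 3 were called higher in Flcn/Tfe3 DKO (against 0.286% of all genes), 0 in Flcn/Tfeb DKO and 0 for the difference (against 0.022%). The summed level of the 17 markers was 519 to 540 CPM in Flcn/Tfeb controls and 549 to 636 CPM in DKO, above the controls in every library. In the Flcn/Tfe3 cross it went from 504 to 649 CPM in set B controls to 643 to 898 CPM in DKO, which overlapped, and from 450 to 570 CPM in set C controls to 659 to 787 CPM in DKO, which did not. No marker was at 0 in every library of a group. Slc4a1 is also on the list of red blood cell genes, so red cells can add to the summed level. The difference of effects was above 0 in 13 of 17 with a median of 0.26, and the median was 0.08 without control replicate 3 of the Flcn/Tfeb cross and -0.049 with the mitochondrial share as a covariate. Single markers ran from -0.78 to 1.71. An unadjusted p under 0.05 was reached by 5 upwards and 1 downwards, against 7.57% and 4.6% of all genes. The markers described next are among those of smallest p.

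Aqp6, a water and anion channel of intercalated cell vesicles, had 8.79, 20 and 23.6 CPM in Flcn/Tfeb controls and 26.6, 29.2, 29.2 and 26.1 CPM in DKO. All 4 DKO libraries were above all 3 controls. In Flcn/Tfe3 kidneys it went from 10.3 to 21.8 CPM in controls (median 13.8) to 24.8 to 71.9 CPM in DKO (median 52.0). It rose by 1.81 in Flcn/Tfe3 DKO (edgeR adjusted p = 6.43e-07), its Flcn/Tfeb effect was 0.62 (p = 0.052 before adjustment), and the difference was 1.19 (0.46 to 1.92, adjusted p = 0.279).

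Atp6v1c2, the kidney form of a proton pump subunit, had 11.1, 13 and 19.1 CPM in Flcn/Tfeb controls and 13.9, 13, 18.1 and 11.1 CPM in DKO. In the Flcn/Tfe3 cross the controls ran from 8.12 to 13.1 CPM and the DKO from 19.7 to 31.4 CPM. The Flcn/Tfeb groups overlapped and the Flcn/Tfe3 groups did not. It rose by 1.21 in Flcn/Tfe3 DKO (edgeR adjusted p = 1.75e-05), had an effect of -0.07 in Flcn/Tfeb DKO, and differed by 1.28 (0.70 to 1.86, adjusted p = 0.197). Foxi1, the transcription factor that specifies intercalated cells, had 7.03, 4.12 and 27.6 CPM in Flcn/Tfeb controls and 5.55 to 8.44 CPM in DKO, so that its difference of 1.71 (SE 0.51, adjusted p = 0.279) rests on control replicate 3, without which it was 0.39. The 25 proton pump genes as a list had a median difference of 0.16, or 0.083 without that library.

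The 39 genes called higher in Flcn/Tfe3 DKO show what was measured in Flcn/Tfeb DKO for the same genes. Of them, 32 are on the study's list of induced genes. Their median effect in Flcn/Tfeb DKO was -0.03, with 18 of 39 above 0 and none called. An unadjusted p under 0.05 was found for 4 upwards and 1 downwards, beside 343 and 876 of all 13637 genes. The genes were chosen by their Flcn/Tfe3 effect, which is a term of the difference, so the difference over them is no test. S100a14, a calcium-binding protein of epithelia, was high in both: 12.9, 8.84 and 5.98 CPM in Flcn/Tfeb controls against 18.6, 20.1, 22.3 and 21.0 CPM in DKO, and 6.37 to 15.8 CPM in Flcn/Tfe3 controls against 17.8 to 40.8 CPM in DKO. Neither cross overlapped, the effects were 1.21 (unadjusted p = 0.00149, edgeR adjusted p = 0.393) and 1.36 (adjusted p = 0.000405), and the difference was 0.15 with a 95% confidence interval of -0.67 to 0.97. It was -0.16 without control replicate 1 of the Flcn/Tfeb cross and 0.44 without replicate 3. S100a14 was singled out after its values were seen, as were Atp12a and Slc26a7.

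Atp12a, a potassium-transporting proton pump, had 34.6, 24.7 and 20.2 CPM in Flcn/Tfeb controls and 29.0, 24.0, 26.2 and 30.5 CPM in DKO, and went from 20.5 to 38.2 CPM in Flcn/Tfe3 controls to 44.8 to 65.4 CPM in DKO. Its difference was 0.92 (SE 0.24, edgeR adjusted p = 0.259). Slc26a7, an anion exchanger, rose by 1.02 in Flcn/Tfe3 DKO and differed by 1.18 (SE 0.34). Of 11 genes of the thick ascending limb, Umod (uromodulin) had 211, 150 and 350 CPM in Flcn/Tfeb controls and 179 to 223 CPM in DKO, against 139 to 235 CPM in Flcn/Tfe3 controls and 244 to 356 CPM in DKO. Umod rose by 0.71 in Flcn/Tfe3 DKO and differed by 0.93 (SE 0.23, adjusted p = 0.259), or 0.53 without control replicate 3 of the Flcn/Tfeb cross. Ptger3, a prostaglandin E receptor, rose by 1.09 and differed by 1.43 (SE 0.40), and Sostdc1, an extracellular inhibitor of BMP and Wnt signals, rose by 0.50 and differed by 0.85 (0.51 to 1.20, adjusted p = 0.0796). Umod, Ptger3 and Sostdc1 were the 3 of the 11 with an unadjusted p under 0.05 upwards (0 downwards), against 7.57% of all genes. Across the 11, the difference was above 0 in 6 and as low as -0.85. The Flcn/Tfe3 effect was above 0 in 6 of 11, with a median of 0.07. The list's median difference was 0.03, which was -0.052 and -0.056 without control replicate 1 or 2 of the Flcn/Tfeb cross and 0.21 without replicate 3.

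Of 17 genes of PGC-1 and mitochondrial biogenesis, 3 were called higher in Flcn/Tfe3 DKO (0.286% of all genes were), 0 in Flcn/Tfeb DKO and 0 for the difference. Ppargc1a, the coactivator PGC-1 alpha, had 57.4, 56.6 and 82.0 CPM in Flcn/Tfeb controls and 56.3, 64.9, 64.7 and 62.6 CPM in DKO, which overlapped. In set B it had 72.1 to 78.5 CPM in controls and 72.6 to 124 CPM in DKO, which overlapped, and in set C 65.4 to 118 CPM and 150 to 164 CPM, which did not. It rose by 0.63 in Flcn/Tfe3 DKO (edgeR adjusted p = 0.0094) and differed by 0.72 (SE 0.24, adjusted p = 0.296). Esrrg, an orphan nuclear receptor that works with PGC-1, rose by 0.71 and differed by 1.05 (SE 0.27), and Ckmt1, mitochondrial creatine kinase, rose by 1.0 and differed by 0.95 (SE 0.32), or 0.51 without control replicate 3 of the Flcn/Tfeb cross. Under the other settings the Ckmt1 difference was 0.20 to 1.11. The 17 genes of the list had a median difference of 0.19, with 10 above 0, and the median was -0.018 without control replicate 2 of the Flcn/Tfeb cross.

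For 29 genes of fatty acid oxidation and ketone use the median difference was 0.35 with 24 above 0 and none called, and it was 0.19 without control replicate 3 of the Flcn/Tfeb cross and 0.051 with the mitochondrial share as a covariate. Oxct1, the enzyme by which cells use ketone bodies, rose by 0.51 in Flcn/Tfe3 DKO and differed by 0.80 (SE 0.19, edgeR adjusted p = 0.259). That difference was 0.37 to 0.92 under the other settings. Hadha, a subunit of the mitochondrial trifunctional protein, had 152, 160 and 332 CPM in Flcn/Tfeb controls and 142 to 156 CPM in DKO, and differed by 0.94 (SE 0.25), or 0.47 without control replicate 3. For 45 nuclear genes of the respiratory chain the median difference was 0.08, but it was 0.23 against set B, -0.17 against set C and -0.036 without control replicate 3. By library their median change was 0.060 to 0.501 in the Flcn/Tfe3 DKO of set B, -0.216 to -0.160 in those of set C and 0.031 to 0.115 in Flcn/Tfeb DKO, so both sets lay on opposite sides of 0. Of these genes, Ndufv1, a complex I subunit, differed by 0.63 (SE 0.19), or 0.40 without control replicate 3, and by 0.25 to 0.77 under the other settings.

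For 30 cell cycle genes the median difference was 0.57, with 27 above 0, and it came from a median of -0.51 in Flcn/Tfeb DKO beside 0.09 in Flcn/Tfe3 DKO. By library the Flcn/Tfe3 DKO median was -0.245 to 0.043 in set B and 0.245 to 0.391 in set C. Ccna2 (cyclin A2) had 18.2, 15.9 and 54.6 CPM in Flcn/Tfeb controls and 16.7, 15.6, 11.9 and 8.72 CPM in DKO. Mcm2, a subunit of the replicative helicase, had 27.5, 24.7 and 78.3 CPM and 17.4 to 34.1 CPM. Control replicate 3 was the highest library of the cross for both genes, and without it their differences went from 1.39 to 0.53 and from 1.12 to 0.33, and the list's median from 0.57 to 0.12. With the mitochondrial share as a covariate that median was -0.085. The same library had the lowest mitochondrially encoded share of its group, and whether the low share and these levels share a source was not tested.

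**Figure D4:**
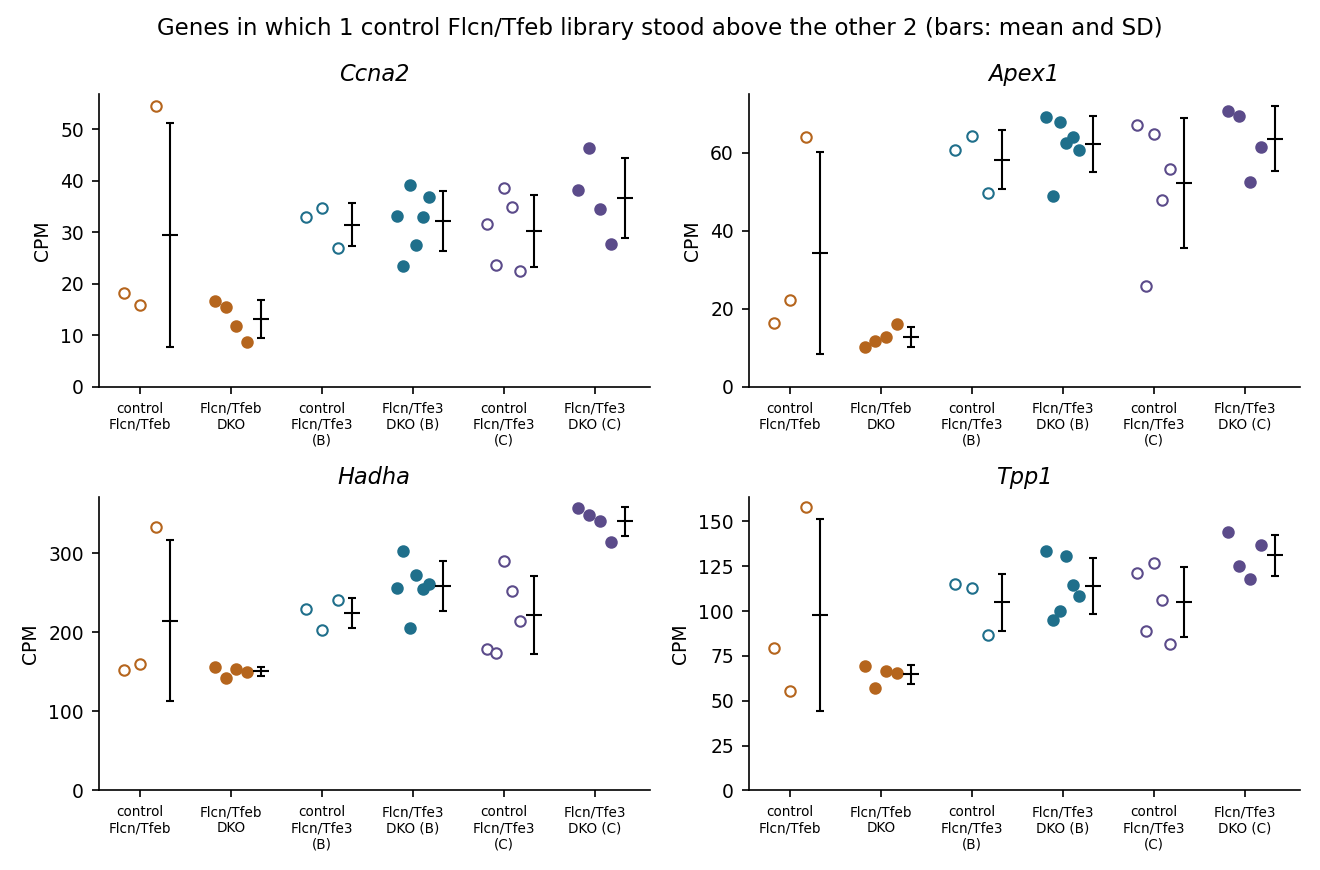
CPM of Ccna2, Apex1, Hadha and Tpp1 in each library, by group and set, with mean and SD beside the points. In each of the 4 genes 1 control of the Flcn/Tfeb cross stands far above the other 2 (54.6 CPM against 18.2 and 15.9 CPM for Ccna2), and the 4 Flcn/Tfeb DKO points lie near the lower controls.

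The 11 mitochondrially encoded genes went the other way, with none above 0 and a median difference of -0.90. It was -0.37 against set B, -1.37 against set C and -0.57 without control replicate 3, and 0.27 with their own share as a covariate. These genes make up the mitochondrial share given above, and its part in the other results was tested only as a covariate and by leaving out libraries. The 9 red blood cell genes tested had a median of -1.05, which was -0.26 using set B and -1.42 using set C. Of 15 myeloid markers 2 were above 0, with a median of -0.18, which was 0.0085 against set B. Of the 36 lists, the per-library medians of Flcn/Tfe3 DKO lay wholly above those of Flcn/Tfeb DKO in 4 (induced genes, their lysosome genes, cell cycle, and fatty acid oxidation and ketone) and wholly below in 0. The 4 Flcn/Tfeb values of a list share the same 3 controls, so this separation leaves out the error of the controls, and the cell cycle and fatty acid lists depended on control replicate 3.

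**Figure D5:**
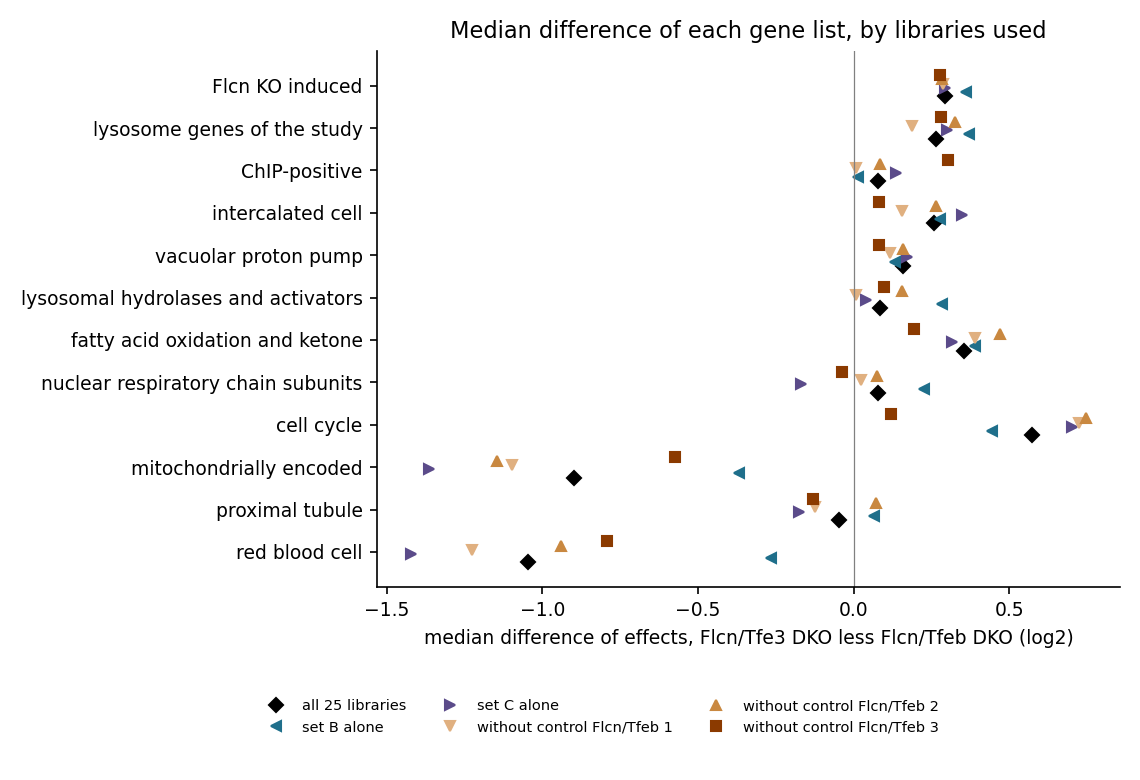
Median difference of effects for each gene list with all 25 libraries, with set B or set C alone for the Flcn/Tfe3 cross, and without each Flcn/Tfeb control in turn. The genes induced in the Flcn KO stay within a narrow band above 0, whereas the cell cycle list goes from 0.57 to 0.12 without control replicate 3 and the mitochondrially encoded list ranges from -1.37 to -0.37.

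Beyond the genes already described, the 10 of smallest p in the higher direction included Ppp1r1b, an inhibitor of protein phosphatase 1. Its Flcn/Tfeb DKO libraries held 1 to 3 counts each, so the size of its difference is not given. Also among them were Apex1, a DNA repair endonuclease (1.67), Zbed3 (1.63), the stress kinase Map3k20 (1.06) and the collagen chain Col4a5 (1.04). Each of these 5 genes had an edgeR adjusted p of 0.197. Ppp1r1b aside, the Flcn/Tfeb effect was the larger in size in these genes. Apex1 had 16.4, 22.4 and 64.0 CPM in the Flcn/Tfeb controls and Zbed3 15.2, 16.5 and 40.7 CPM, and without the high replicate 3 their differences were 0.78 and 0.97. Col4a5, for example, had 35.2, 26.5 and 39.8 CPM in Flcn/Tfeb controls and 15.1, 14.3, 19.6 and 16.2 CPM in DKO, without overlap, and 20.5 to 36.4 CPM and 25.6 to 36.7 CPM in Flcn/Tfe3 controls and DKO.

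In the lower direction the 10 genes of smallest p had edgeR adjusted p from 0.259 to 0.274. Some were at or near 0 counts in a whole group, such as Inhbe (0 counts in all 3 Flcn/Tfeb controls, and 22, 0, 0 and 6 counts in the DKO), so that the size of their difference is not given. Nkd2, an inhibitor of Wnt signalling, had 59.2, 84.8 and 36.7 CPM in Flcn/Tfeb controls and 72.6, 105, 117 and 76.9 CPM in DKO, which overlapped. In set B it had 43.1 to 50.3 CPM in controls and 25.6 to 50.5 CPM in DKO, which overlapped, and in set C 45.3 to 52.9 CPM and 26.1 to 38.5 CPM, which did not. Its difference was -1.14 (-1.70 to -0.58). Marco, a scavenger receptor of macrophages, had 1.17, 0.589 and 0.285 CPM in Flcn/Tfeb controls and 7.54, 7.14, 0.385 and 3.96 CPM in DKO. Marco was at 0 to 5.97 CPM in Flcn/Tfe3 controls and 0 to 2.41 CPM in DKO. Its Flcn/Tfeb controls held only 1 or 2 counts each, so no fold is given for it.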

How the data were processed

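The RNA-seq libraries were made with a 3′ end kit and read single-end. Per the study's methods the authors trimmed the reads, aligned them to mm10 with STAR and assigned reads to genes with HTSeq-count; the submitters' processing notes name Trim Galore and STAR. The authors deposited the raw counts per gene, not normalized, in 3 tables. Reads on no gene or on several places were left out of totals and tests. No-feature reads were 7.92% to 19.9% of the reads in the 16 libraries whose deposited counts give them. A column that belongs to no sample (1) was not used.

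Counts of the 25 libraries were fitted in edgeR 4.0.16 (R 4.3.3) with filterByExpr, TMM factors and the two-sided quasi-likelihood F test. The fit had 1 baseline for the Flcn/Tfeb cross, 1 for each of sets B and C, and 1 DKO term for each cross. The difference of effects was the contrast of the 2 DKO terms. Benjamini-Hochberg adjustment ran over the 13637 genes, with calls under an adjusted p of 0.05. SE is the size of the log2 value over the root of F. Changes by library used a prior count of 2. The Flcn KO effect was fitted on the 10 libraries of its own cross. The fit was tested first on simulated counts in which 200 genes were raised 2-fold in Flcn/Tfe3 DKO only. Of these, 52 were called for the difference and 173 for the Flcn/Tfe3 effect, with 1 and 4 unchanged genes called. Most simulated differences of 2-fold were thus missed. Depth was as given with the libraries, and 3 counts correspond to 0.708 to 1.82 CPM; counting error is the only error such a limit covers. P-values measure the spread between libraries labelled biological replicates.

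Coordinates are those of GRCm38 (mm10), and promoters are from RefSeq. The genes named are the targeted genes, the ChIP-positive and lysosome genes of the study, the 10 of smallest p in each direction among genes with a mean of at least 10 counts in a group, up to 4 of smallest p of each list, and a few named after their values were seen; not all are printed. The members and lists were chosen with earlier results of these data known. The results were repeated with DESeq2 1.42.0, edgeR's likelihood ratio test, other factors, filters, terms and sets, covariates, and leaving out each library.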

Additional observations from a re-analysis of the deposited data

Results flagged for a closer look

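In 10 of 156 groups of 4 to 6 libraries of a set tested for the named genes, 1 library lay far from the others for the size of the group's range; chance flags about 1 in 20 groups, which would be 7.8. In Flcn/Tfeb DKO these were Oxct1 in replicate 1 (424 CPM, the next 363), Tfeb in replicate 2 (6.49 CPM, the next 7.70), and replicate 4 for Gadd45a (11.9 CPM, the next 15) and Slc26a7 (6.34 CPM, the next 11.7). In Flcn/Tfe3 DKO of set C they were Ckmt1 and Sostdc1 in replicate 10 (40.1 CPM beside 46.4, and 381 CPM beside 453), Zbed3 in replicate 9 (22.3 CPM beside 27.5) and Marco in replicate 8 (0.270 CPM, with 0 in the other 3). The others were Ppp1r1b in replicate 6 of the Flcn/Tfe3 DKO in set B (9.46 CPM beside 6.68) and Sostdc1 in control replicate 8 of set C (337 CPM beside 305).

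The effect of the knockout differed between the crosses by the test of the difference itself for Slc16a7 (1.60), Car12 (0.92) and Cyp4a31 (3.22), with edgeR adjusted p of 0.00144, 0.00849 and 0.0155.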

How the results depend on the processing

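Of the 39 genes followed through up to 15 other settings and 25 libraries left out in turn, 32 had the direction reported under each setting that gave them a value, as did 1535 of 1553 values. The genes induced in the Flcn KO had 83 to 106 with a difference above 0 and a median of 0.26 to 0.36 under the 14 other settings that apply to them and with each library left out. The number of genes called depended on the setting. For the difference it was 7 with DESeq2 or the likelihood ratio test, 0 with set B alone, 1 with set C alone, 0 with the mitochondrial share as a covariate, 1 without both libraries that stand apart (chosen after seeing the data), and 1 to 82 with a library left out. For the Flcn/Tfe3 effect it was 81 with DESeq2, 79 with the likelihood ratio test, 8 in set B, 213 in set C, and 31 to 63 with a library left out. For the Flcn/Tfeb effect it was 2 at a threshold of 0.1, 4 with DESeq2, the likelihood ratio test or no filter on low counts, 3 in a fit of 35 libraries, 0 with the mitochondrial share or without both libraries, and 0 to 28 with a library left out. Values that turned sign were, with the mitochondrial share, Atp6v0d2 (-0.27), Flcn (-0.13), Tfeb (-0.092) and Mcm2 (-3.84e-06), without both libraries Flcn (-0.17) and Gpnmb (0.17), in set C S100a14 (-0.18), and with Xist as a covariate Tfe3 (-0.047). Medians of many lists also turned sign. Among those described these were, with the mitochondrial share, cell cycle (-0.085) and intercalated cell (-0.049), and in set B myeloid (0.0085). In set C and without both libraries it was the nuclear respiratory chain (-0.17 and -0.022). With 1 Flcn/Tfeb control left out they were the respiratory chain (-0.036), the thick ascending limb (-0.056) and mitochondrial biogenesis (-0.018). The mitochondrially encoded median turned to 0.27 with the mitochondrial share, but that share is made of these genes, so this turn is no test. The genes that fell in Flcn KO had -0.18 with the mitochondrial share, -0.15 without both libraries and -0.012 in set B. Other lists that turned include, with the mitochondrial share, glycolysis and hypoxia (0.27 to -0.16), principal cell (0.17 to -0.21), NRF2 (0.16 to -0.15), ATF4 (0.14 to -0.057) and the epithelium in which the Cre acts (0.10 to -0.037), and in set C immediate early genes (-0.12 to 0.13); without control replicate 3 glycolysis (-0.039) and principal cell (-0.11) turned too. Smaller medians, of distal convoluted tubule, podocyte, nephron progenitor and proximal tubule, also crossed 0 under some setting. With the mitochondrial share 26 of the 39 genes moved by over 1.5 times. With a library left out the ranges that crossed 0 were -0.14 to 0.19 for Flcn, -1.64 to 0.46 for Gpnmb, -0.16 to 0.44 for S100a14 and -0.10 to 0.21 for Tfe3. The cause of each turn was not tested. With the replicate number as a block 0, 12 and 0 genes were called for the difference, the Flcn/Tfe3 and the Flcn/Tfeb effect, and the difference for Flcn was -0.18; same-numbered libraries had deviations that correlated at -0.33 to 0.31, so the numbers do not pair the libraries.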
